A study of Mus musculus with 34 samples.

Results

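The genes described here are 30 genes of cholesterol and fatty acid synthesis, measured by polyA RNA-seq in brain cortex of 34 mice. They were taken by gene symbol from a count table of 55385 genes, and all 30 were among the 17632 genes with enough reads to be tested. By role they are 7 enzymes of the mevalonate pathway, 11 enzymes from squalene to cholesterol, the sterol carrier Stard4, 5 regulators and 6 enzymes of fatty acid synthesis. Mice were 6 months old and of 4 genotypes: wild-type C57BL/6J, Dp16, 5xFAD and the cross 5xFAD-Dp16. Dp16 mice carry a duplication of a chromosome 16 segment whose counterpart lies on human chromosome 21, and serve as a model of trisomy 21. 5xFAD mice carry human familial Alzheimer disease transgenes under the neuronal Thy1 promoter and form amyloid plaques. Every mouse was gavaged daily for a month, either with tofacitinib, a Janus kinase inhibitor, at 15 mg/kg, or with the 0.5% methylcellulose vehicle, called sham, and 16 of the mice were female and 18 male. Sham mice numbered 5 wild-type, 3 Dp16, 4 5xFAD and 3 5xFAD-Dp16, and treated mice 5, 5, 5 and 4 in the same order. None of the 30 genes lies on chromosome 16.

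Cholesterol hardly crosses the blood-brain barrier, so the brain makes its own, and in the adult astrocytes and myelinating oligodendrocytes are the main sources. Acetyl-CoA is built up through mevalonate to isoprenoids, joined to squalene by Fdft1, closed to a ring and trimmed to cholesterol. Transcription is set by the SREBP factors, the products of Srebf1 and Srebf2, which are carried by Scap from the endoplasmic reticulum to the Golgi for activation when sterols are low and are held back by Insig1 and Insig2 when sterols are high. SREBPs bind sterol regulatory elements, usually beside sites for NF-Y, which binds CCAAT.

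Promoters were read to show where such letters occur in the genes concerned. The RefSeq table of promoters (build GRCm38.p6, 250 bases before to 50 after a start) held 24 of the 30 genes with 32 starts. It did not list Fdps, Fdft1, Sqle, Stard4, Scd1 or Scd2. The sterol regulatory element was searched as TCACNNCAC on both strands. It occurred in 4 of the 32 windows (12.5%), against 3.77% of all 32851 windows in the table. The stricter TCACNCCAC occurred in 1 window (3.1%), that of Hmgcs1, against 1.24% of all. CCAAT occurred in 21 (65.6%), against 37.41%, and the GC box GGGCGG in 24 (75.0%), against 35.66%. The E-box CACGTG occurred in 6 (18.8%), against 7.15%. A match describes letters and is not evidence of binding.

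The 4 promoters with a sterol element match are shown because 2 of them, Hmgcs1 and Msmo1, belong to the genes that rose with the duplication. Each is the 250 bases before a RefSeq start, 5′ to 3′ on the gene's strand, with matches to the sterol element and to CCAAT on either strand in capitals.
Hmgcs1, chr13:119690101-119690350, plus strand: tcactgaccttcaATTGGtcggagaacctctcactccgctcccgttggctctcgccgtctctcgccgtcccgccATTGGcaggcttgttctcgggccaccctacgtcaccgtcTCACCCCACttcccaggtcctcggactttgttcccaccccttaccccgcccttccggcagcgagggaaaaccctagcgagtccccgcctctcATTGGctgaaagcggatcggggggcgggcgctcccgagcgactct
Msmo1, chr8:64733579-64733828, minus strand: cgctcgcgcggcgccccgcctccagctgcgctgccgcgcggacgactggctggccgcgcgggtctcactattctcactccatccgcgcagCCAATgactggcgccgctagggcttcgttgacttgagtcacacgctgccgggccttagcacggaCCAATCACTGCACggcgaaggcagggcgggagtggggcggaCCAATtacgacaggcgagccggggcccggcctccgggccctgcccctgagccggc
Hsd17b7, chr1:169969206-169969455, minus strand: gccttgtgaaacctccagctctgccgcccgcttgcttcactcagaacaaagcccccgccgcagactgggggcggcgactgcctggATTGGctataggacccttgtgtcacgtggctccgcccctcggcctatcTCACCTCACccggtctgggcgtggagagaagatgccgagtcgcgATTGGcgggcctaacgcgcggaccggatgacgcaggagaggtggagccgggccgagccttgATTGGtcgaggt
Dhcr7, chr7:143823149-143823398, plus strand: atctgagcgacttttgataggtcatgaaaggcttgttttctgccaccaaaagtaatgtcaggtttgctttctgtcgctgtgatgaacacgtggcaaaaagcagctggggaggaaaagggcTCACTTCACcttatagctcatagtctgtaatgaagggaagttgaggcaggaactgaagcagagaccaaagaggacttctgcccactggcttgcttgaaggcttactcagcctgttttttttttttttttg

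The element began 137 bases before the start in Hmgcs1, 92 in Msmo1, 117 in Hsd17b7 and 130 in Dhcr7, each on the gene's own strand. Hmgcs1, Msmo1 and Hsd17b7 each had 3 CCAAT matches in these stretches, and in Msmo1 the middle one overlapped the sterol element. The Dhcr7 stretch had no CCAAT match. It lay wholly inside the gene as GENCODE M21 places it, from 143823145, and windows at other Dhcr7 starts held no sterol element. In Msmo1 the element also lay inside the gene, which begins at 64733792 there.

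Levels between genes were compared on the deposited RPKM, which divides by gene length. Scd2, the main brain desaturase that makes monounsaturated fatty acids, was highest at 288.5 RPKM ± 37.5 (SD, n = 34). Elovl6, which lengthens palmitate, was the lowest fatty acid enzyme at 7.84 RPKM ± 0.679 (SD, n = 34). Hmgcs1, which makes HMG-CoA, was the highest mevalonate enzyme at 80.8 RPKM ± 8.28 (SD, n = 34), and Idi1, the isopentenyl diphosphate isomerase, the lowest at 6.56 RPKM ± 1.31. These 2 enzymes of the same pathway therefore differed in level by more than their ranges, 62.4 to 99.7 RPKM for Hmgcs1 and 4.66 to 10.5 for Idi1. Among later sterol enzymes, Msmo1, the C4 methylsterol oxidase, was highest at 43.8 RPKM ± 6.75 (SD, n = 34). Hsd17b7, the 3-ketosteroid reductase of the same demethylation complex, was lowest of all 30 genes at 3.74 RPKM ± 0.530 (SD, n = 34). Of the regulators, Srebf2 was highest at 47.1 RPKM ± 6.20 and Srebf1 lowest at 12.4 RPKM ± 2.23 (SD, n = 34). Stard4 stood at 6.04 RPKM ± 0.907 (SD, n = 34).

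The other mevalonate enzymes were Pmvk at 28.5 RPKM, Fdps at 15.8, Mvd at 14.2, Acat2 at 13.2 and Mvk, the mevalonate kinase, at 11.6, as means of 34 libraries. Of the enzymes that make and process squalene, Fdft1 stood at 28.8 RPKM, Cyp51, the lanosterol demethylase, at 21.4, Sqle, the squalene epoxidase, at 19.4 and Sc5d, a desaturase, at 16.8. Nsdhl stood at 11.1 RPKM, Ebp at 9.72, Dhcr7, the 7-dehydrocholesterol reductase, at 8.70, Tm7sf2 at 6.33 and Lss, which closes the ring, at 4.29. Among fatty acid enzymes, Scd1 stood at 60.6 RPKM, Acly at 33.8, Fasn at 24.1 and Acaca, which makes malonyl-CoA, at 8.12. Insig1 stood at 35.4 RPKM, Scap at 18.8 and Insig2 at 13.9. In the order of all 30 levels, ranges over libraries overlapped between 28 of 29 pairs of neighbours, all but Scd2 and Hmgcs1.

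**Figure D1:**
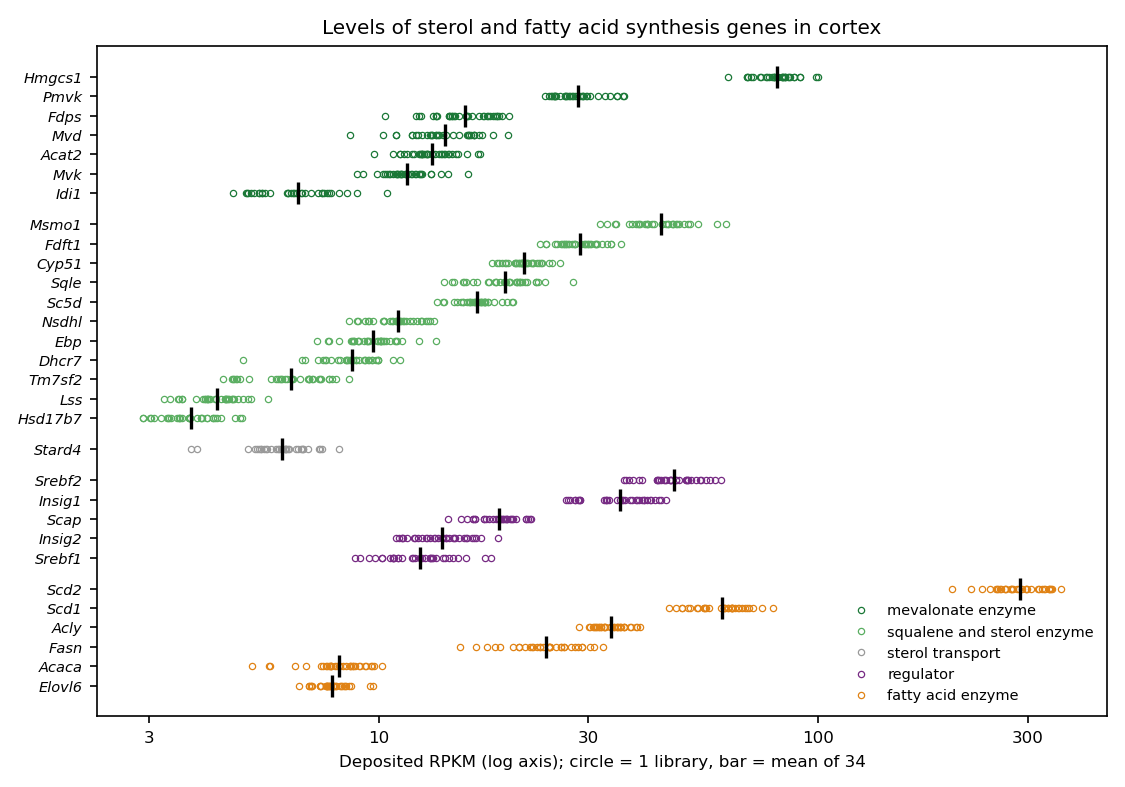
Deposited RPKM on a log axis (horizontal) of each of the 30 genes (vertical), grouped by role; each circle is 1 of 34 libraries and the bar is their mean. Scd2 stands above the other genes at 288.5 RPKM, and Hsd17b7 has the lowest mean at 3.74.

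The spread over all 34 libraries, as SD over mean of RPKM, ran from 8.01% for Acly, the ATP citrate lyase that supplies acetyl-CoA, to 19.98% for Idi1. Counts per library ranged from 126 reads for Tm7sf2, a sterol reductase, to 38043 for Scd2, so counting error was largest for Tm7sf2.

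Libraries held 16029841 to 21388650 counted reads, and those of 5xFAD carriers were deeper, with a mean of 19526300 against 17234700. The markers of 9 other cell classes and regions were measured in every library, and apart from 2 choroid plexus genes none was at 0 in any library. Summed oligodendrocyte markers ranged from 5769 to 14643 CPM, the count scaled to the library's total. Their highest value, in 5xFAD tofacitinib 2, went with the lowest summed neuronal markers, 4403 CPM. Results without that library and wild-type sham 2 together are given in the closing section. Wild-type sham 2 lay within the range of the others for these markers, with sums of 8885 CPM for oligodendrocytes and 8022 for neurons. It had the fewest counted reads and the lowest mean log2 CPM of the 30 genes, 5.74. The libraries are of whole tissue, so fewer cells of a type and less RNA per cell cannot be told apart.

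Each comparison was tested with edgeR on counts, with sex as a term, over all 17632 genes, and a gene was called at an adjusted p under 0.05. Differences are log2 of the fold change and levels within a gene are CPM. Percentages of all genes called are those of this edgeR fit. Such shares for other tools, for other filters and for fits with libraries left out are not given here.

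Carrying 5xFAD was the first question. Averaged over duplication and treatment, edgeR called 2 of the 30 genes higher in the 16 carriers than in the 18 other mice and none lower. Of all genes tested 0.420% were called, 0.193% higher and 0.227% lower. DESeq2 called 6 of the 30, limma-voom 8 and edgeR without a count filter 7, all higher, and leaving out 1 library gave 0 to 6 in edgeR, with 6 without 5xFAD tofacitinib 2. The shares above do not apply to these other fits, whose own shares of all genes called are not given here. The 2 genes that edgeR called with all libraries were Fdft1, the squalene synthase that commits the pathway to sterols, and Srebf1, the SREBP gene known for fatty acid synthesis. Without adjustment 13 of the 30 were higher and 1 lower at p under 0.05, against 8.51% and 11.8% of all genes. Differences were above 0 for 23 of the 30, against 50.7% of all genes, and their median was 0.11, against 0.003 over all genes.

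Fdft1 (ENSMUSG00000021273.11, GRCm38 chr14:63145150-63179578, minus strand) stood at 93.6, 97.7, 107.5, 113.0 and 108.7 CPM in wild-type sham and at 109.5, 121.4, 136.0 and 120.4 in 5xFAD sham. It stood at 103.8, 106.3 and 99.6 CPM in Dp16 sham and at 119.7, 125.7 and 116.1 in 5xFAD-Dp16 sham. The Dp16 and 5xFAD-Dp16 sham libraries did not overlap, while 5xFAD sham 1 lay within the wild-type range. How many of all genes were without overlap between Dp16 and 5xFAD-Dp16 sham was not computed. With tofacitinib it stood at 98.5, 112.3, 107.6, 105.3 and 108.8 CPM in wild-type and at 143.7, 106.2, 131.4, 126.5 and 122.5 in 5xFAD. It stood at 112.4, 104.3, 116.1, 124.0 and 117.7 CPM in treated Dp16 and at 105.1, 130.6, 128.3 and 126.4 in treated 5xFAD-Dp16. Among treated mice 1 library in each carrier group, 5xFAD 2 and 5xFAD-Dp16 1, fell inside the range of its controls. The difference over all groups was 0.19 (SE 0.042, adjusted p = 0.0332). Of 34 fits that each left out 1 library 23 kept the call, and without 5xFAD-Dp16 sham 2 the adjusted p was 0.115. In the 4 pairs of groups without shared libraries it was 0.22 in both sham pairs, 0.24 for treated 5xFAD against wild-type and 0.09 for treated 5xFAD-Dp16 against Dp16. Exons of Fdft1 overlap those of Ctsb on the opposite strand, and whether counting used strand is not given in the sources used here. This overlap and the position are from GENCODE M21, which holds another version of Fdft1 than the counted one.

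Srebf1 (ENSMUSG00000020538.15, GRCm38 chr11:60199089-60222581, minus strand) stood at 44.2, 38.7, 48.0, 46.1 and 52.5 CPM in wild-type sham and at 57.1, 76.3, 68.5 and 57.6 in 5xFAD sham. It stood at 46.3, 45.0 and 46.0 CPM in Dp16 sham and at 53.9, 46.8 and 57.6 in 5xFAD-Dp16 sham. All carriers in these sham groups lay above their controls, against Dp16 by 46.8 to 46.3 CPM. In 5xFAD against wild-type sham 10.8% of all genes were without overlap in either direction. For 5xFAD-Dp16 against Dp16 sham that share was not computed. With tofacitinib it stood at 44.9, 64.2, 54.3, 58.2 and 67.2 CPM in wild-type and at 61.6, 69.9, 60.6, 53.6 and 55.5 in 5xFAD. It stood at 51.4, 42.2, 40.4, 39.8 and 51.2 CPM in treated Dp16 and at 47.0, 56.2, 49.6 and 61.1 in treated 5xFAD-Dp16. The treated groups overlapped in both pairs. The mean difference was 0.25 (SE 0.060, adjusted p = 0.0497), close to the threshold. The call was kept in 11 of 34 fits that each left out 1 library, and without Dp16 sham 3 the adjusted p was 0.132. In the 4 pairs it was 0.49 and 0.20 in sham and 0.07 and 0.24 with tofacitinib, wild-type background first. Exons of Srebf1 overlap those of Rai1 on the opposite strand.

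**Figure D2:**
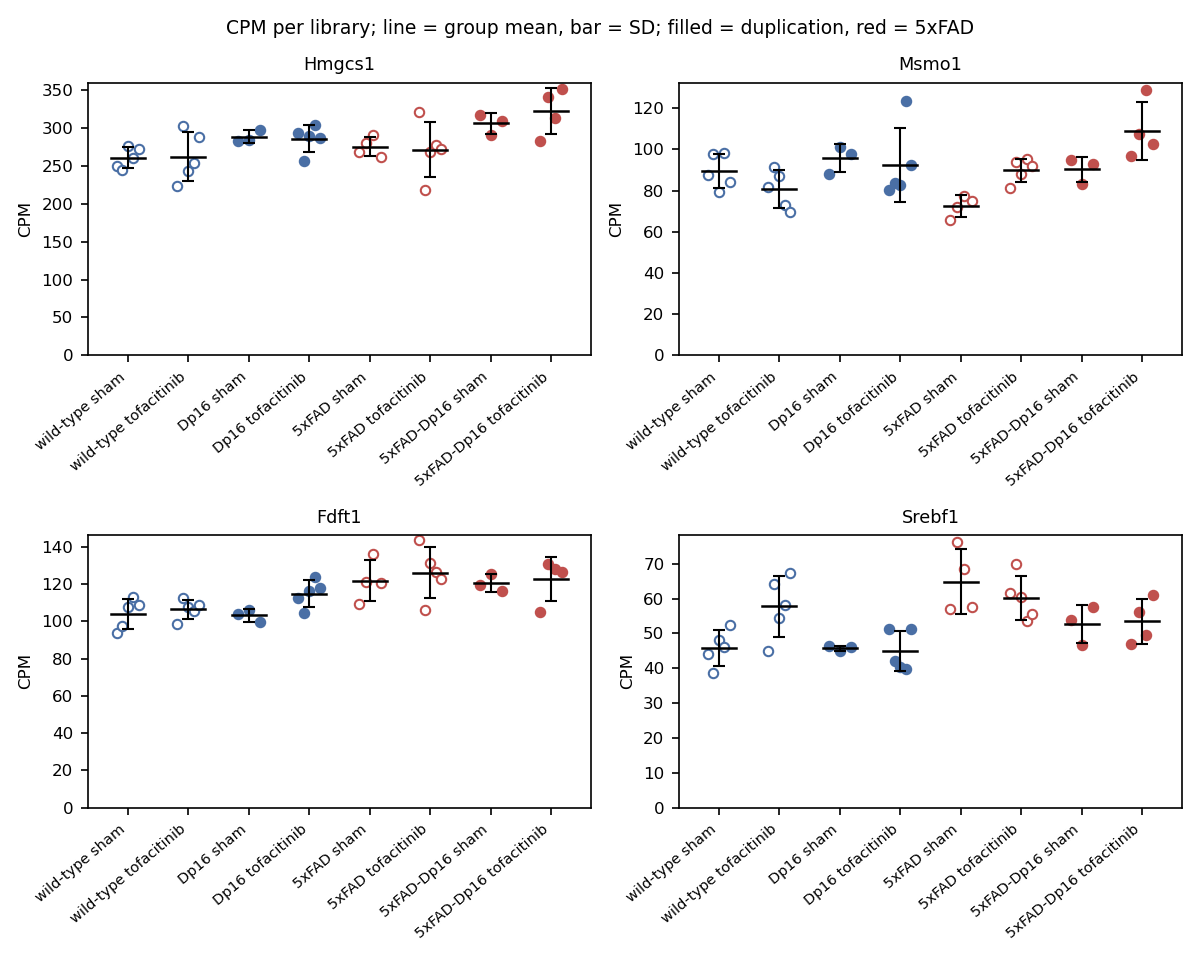
CPM (vertical) of the 4 called genes by group (horizontal); points are libraries, lines group means, bars SD, filled points carry the duplication and red points carry 5xFAD. Srebf1 in 5xFAD sham lies at 57.1 to 76.3 CPM, above all wild-type sham libraries, and Msmo1 in 5xFAD sham lies at 65.7 to 77.6 CPM, below them.

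The fatty acid enzymes had differences above 0 in 6 of 6, none called by edgeR. All 6 were longer than 3.706 kb, the median of the 30 genes, and differences moved with gene length, as described below. DESeq2 called Acly and Fasn, and limma-voom Acly, Fasn and Acaca. Fasn, the fatty acid synthase, had the largest difference of all 30 at 0.27 (SE 0.074, adjusted p = 0.0793). It ranged from 189.4 to 329.9 CPM (median 273.4) in carriers and from 156.9 to 274.9 (median 224.6) in the other mice. At the other end stood Idi1 at -0.14 (SE 0.083, adjusted p = 0.315) and Insig2 at -0.14 (SE 0.058, adjusted p = 0.192). Stard4 differed by 0.23 (adjusted p = 0.0977) and Srebf2 by 0.19 (adjusted p = 0.114). By the sign of the fitted, sex-adjusted difference, 12 of the 30 genes were higher and 1, Pmvk, lower in each of the 4 pairs of groups, against 7.41% and 9.68% of all genes. The 12 were Hmgcs1, Mvd, Fdft1, Sqle, Hsd17b7, Dhcr7, Stard4, Srebf1, Scap, Acly, Acaca and Fasn. For Fasn the treated 5xFAD pair was at 0.00 in the fit, and its group means were 244.3 CPM in 5xFAD and 245.0 in wild-type.

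Csf1r, of 6 genes listed as microglial markers, was called higher in 5xFAD carriers, and the directions of the others are not given here. Summed markers of microglia ran from 335.3 to 461.4 CPM in carriers, against 290.0 to 412.3 in the other mice, so the ranges overlapped. None of the 12 oligodendrocyte markers was called and 9 were below 0. The part of these cell classes and of depth in the differences was not tested.

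In sham mice alone, 5xFAD against wild-type gave no called gene among the 30, with 0.0170% of all genes called. At unadjusted p under 0.05, 16 of the 30 differed, 10 higher and 6 lower, against 24.8% of all genes. DESeq2 called 8 and limma-voom with sample weights 10, and edgeR called 11 without wild-type sham 3. Insig2 and Msmo1 were lower with both of the other tools, Pmvk also with limma-voom, and their other calls were higher. The shares of all genes called in these fits are not given here, so these counts cannot be set against all genes. The largest differences were Srebf1 at 0.49 (SE 0.11, adjusted p = 0.0606) and Fasn at 0.47 (SE 0.14, adjusted p = 0.0635). The smallest were Idi1 at -0.42 (SE 0.16, adjusted p = 0.105) and Insig2 at -0.36 (SE 0.11, adjusted p = 0.0664).

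Fasn stood at 224.2, 156.9, 262.8, 191.5 and 211.7 CPM in wild-type sham and at 268.3, 315.0, 305.8 and 282.6 in 5xFAD sham. Insig2 ranged from 36.6 to 51.4 CPM (median 42.5) in wild-type and from 32.1 to 34.6 (median 33.5) in 5xFAD. For both genes the groups did not overlap. Idi1 ranged from 15.4 to 26.2 CPM (median 19.6) in wild-type and from 14.0 to 16.5 (median 15.5) in 5xFAD, and the groups overlapped. Besides Fasn and Insig2, the genes without overlap were Acaca, Srebf1, Srebf2 and Dhcr7, above wild-type, and Msmo1, below it. These 7 compare with 10.8% of all genes without overlap.

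Differences in this comparison moved with gene length. The Spearman rank correlation between length and difference was 0.463 over the 30 genes, which share the same 9 libraries. Of the 15 longer genes 13 were above 0, and of the 15 shorter ones 8. The correlation of log2 CPM with length over genes, taken per library against the mean of all libraries, was 0.226 to 0.390 in 5xFAD sham and -0.246 to 0.277 in wild-type sham. With each library's length trend removed, the rank correlation was 0.101 and Srebf1 differed by 0.42 (adjusted p = 0.0461), while Fasn, the longest of the 30 at 10.05 kb, differed by 0.28 (adjusted p = 0.0595). Fdps, the shortest of the 30, went from 0.32 to 0.52 (adjusted p = 0.0602). For the 5xFAD mean, the rank correlation was 0.429 and, with trends removed, -0.004. There Fdft1 differed by 0.17 (adjusted p = 0.0284), Srebf1 by 0.22 (adjusted p = 0.0444) and Fasn by 0.17 (adjusted p = 0.0557).

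**Figure D3:**
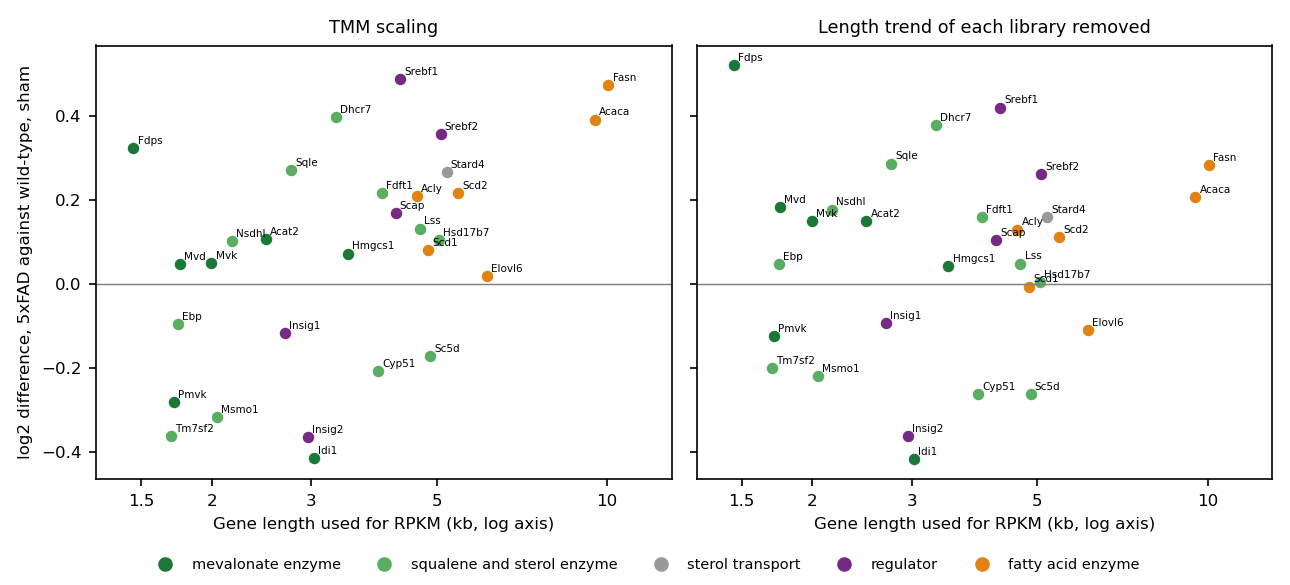
log2 difference of 5xFAD against wild-type, sham (vertical), against gene length in kb on a log axis (horizontal) for the 30 genes, coloured by role, with standard scaling (left) and with each library's length trend removed (right). The rank correlation over the genes is 0.463 on the left and 0.101 on the right; Srebf1 stays high and Idi1 and Insig2 low in both panels.

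In 5xFAD-Dp16 against wild-type sham, none was called (0.363% of all genes called), and 6 were higher and 1 lower at unadjusted p under 0.05, against 7.24% and 7.62%. DESeq2 called 0 and limma-voom 2. Fasn, at 0.38 (adjusted p = 0.277), and Stard4, at 0.32 (adjusted p = 0.295), were largest, and Pmvk, the phosphomevalonate kinase, at -0.31 (adjusted p = 0.252), and Insig2, at -0.23 (adjusted p = 0.371), smallest. In 5xFAD-Dp16 against Dp16 sham none was called (0.00567% of all genes), with 2 higher and 0 lower unadjusted, against 3.09% and 3.14%, and 0 by either other tool. These comparisons share control or carrier libraries with those above. With tofacitinib, 5xFAD against wild-type called none (0.0170% of all genes), with 7 higher and 0 lower unadjusted, against 3.12% and 3.27%. DESeq2 called 0 and limma-voom 2, Acat2 higher and Scd2 lower. Acat2, the cytosolic acetoacetyl-CoA thiolase, had the smallest adjusted p, with a difference of 0.34 (adjusted p = 0.484). Nsdhl and Fdps, the farnesyl diphosphate synthase, were without overlap, against 0.647% of all genes. In treated 5xFAD-Dp16 against Dp16 none was called (0.00567% of all genes), with 4 higher and 0 lower unadjusted, against 2.43% and 2.19%, and 0 by either other tool.

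The duplication was the second question. Averaged over 5xFAD and treatment, edgeR called 2 of the 30 higher in the 15 carriers than in the 19 other mice and none lower. Of all genes tested 2.14% were called, 1.17% higher and 0.975% lower. DESeq2 called 2, and limma-voom 6, of which Srebf1 was lower. Leaving out 1 library gave 1 to 4 in edgeR, and without wild-type tofacitinib 1 Srebf1 was called lower at -0.21 (adjusted p = 0.0418). The 2 genes that edgeR called with all libraries were both sterol enzymes, Hmgcs1 and Msmo1. Without adjustment 6 were higher and 1 lower, against 6.56% and 7.17% of all genes. The median difference was 0.01, against 0.004 over all genes, and 18 of the 30 were above 0, against 51.3%, so the set as a whole stood near all genes.

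Msmo1 (ENSMUSG00000031604.10, GRCm38 chr8:64718139-64733792, minus strand) stood at 87.4, 97.5, 79.3, 98.2 and 84.3 CPM in wild-type sham and at 88.0, 101.0 and 97.9 in Dp16 sham. It stood at 65.7, 71.8, 77.6 and 75.0 CPM in 5xFAD sham and at 94.8, 83.3 and 92.8 in 5xFAD-Dp16 sham. The carriers did not overlap their controls on the 5xFAD background and did on the wild-type one. On the 5xFAD background the share of all genes without overlap was not computed. With tofacitinib it stood at 81.8, 91.5, 87.1, 72.8 and 69.8 CPM in wild-type and at 80.3, 83.4, 82.7, 123.3 and 92.5 in Dp16. It stood at 81.3, 93.6, 87.9, 95.2 and 91.8 CPM in treated 5xFAD and at 96.8, 107.5, 129.1 and 102.5 in treated 5xFAD-Dp16. Again the groups did not overlap on the 5xFAD background, for which no share over all genes was computed. The mean difference was 0.24 (SE 0.056, adjusted p = 0.0157), and all 34 fits that each left out 1 library kept the call, with an adjusted p of up to 0.0426. In the 4 pairs it was 0.12 and 0.35 in sham and 0.21 and 0.28 with tofacitinib, wild-type background first. The interaction of 5xFAD and duplication for Msmo1 was 0.15 (SE 0.11, adjusted p = 0.995).

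Hmgcs1 (ENSMUSG00000093930.2, GRCm38 chr13:119690379-119708260, plus strand) stood at 249.4, 244.4, 276.1, 260.1 and 272.4 CPM in wild-type sham and at 283.0, 283.5 and 297.9 in Dp16 sham. It stood at 268.6, 280.2, 290.7 and 262.0 CPM in 5xFAD sham and at 316.9, 291.0 and 309.4 in 5xFAD-Dp16 sham. Both pairs were without overlap, on the 5xFAD background by 291.0 to 290.7 CPM. In Dp16 against wild-type sham 4.59% of all genes were without overlap, and for the other pair this share was not computed. With tofacitinib it stood at 223.3, 301.9, 243.7, 253.0 and 288.4 CPM in wild-type and at 293.2, 256.5, 288.8, 304.1 and 286.4 in Dp16. It stood at 320.6, 218.1, 268.4, 277.3 and 272.4 CPM in treated 5xFAD and at 283.3, 340.5, 313.5 and 351.2 in treated 5xFAD-Dp16. Treated groups overlapped. The mean difference was 0.18 (SE 0.048, adjusted p = 0.0353). It was called in 20 of 34 fits that each left out 1 library, and without Dp16 sham 3 the adjusted p was 0.0767. In the 4 pairs it was 0.16 and 0.18 in sham and 0.14 and 0.25 with tofacitinib. Exons of Hmgcs1 overlap those of Gm48342 on the opposite strand.

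The largest difference of the 30 was that of Idi1, 0.26 (SE 0.082, adjusted p = 0.101), followed by Tm7sf2 at 0.25 (SE 0.082, adjusted p = 0.123), neither called by edgeR. limma-voom called both, and edgeR called Idi1 without a count filter (adjusted p = 0.0268). Idi1 ranged from 15.99 to 32.4 CPM (median 20.96) in carriers and from 14.0 to 26.2 (median 17.0) in the other mice. Tm7sf2 ranged from 7.88 to 14.0 CPM (median 11.8) and from 7.54 to 13.1 (median 10.1). At the other end stood Srebf1 at -0.19 (SE 0.062, adjusted p = 0.114), with 39.8 to 61.1 CPM (median 47.0) against 38.7 to 76.3 (median 57.1), and Pmvk at -0.11. Of the 30, 6 (Hmgcs1, Idi1, Tm7sf2, Msmo1, Sc5d and Stard4) were higher and 2 (Pmvk and Acly) lower in the fitted, sex-adjusted difference of each of the 4 pairs of groups, against 11.6% and 11.3% of all genes. For Acly the sham wild-type pair was near 0, with group means of 150.5 CPM in Dp16 and 149.5 in wild-type. The 6 fatty acid enzymes lay between -0.09 and 0.01.

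Oligodendrocyte markers went the other way: 11 of 12 were below 0 in carriers and 3, Cnp, Ermn and Fa2h, were called lower. Summed they ran from 5769 to 10171 CPM in carriers and from 6040 to 14643 in the other mice. The 14643 was 5xFAD tofacitinib 2 alone. The next highest of the other mice was wild-type tofacitinib 1 at 9555 CPM, below the highest carrier. Enpp6 and Sox10, of 9 genes listed with oligodendrocyte precursors, were called lower, as was P2ry12 of 6 listed with microglia. Being listed there does not make Enpp6 and Sox10 specific to precursors, so no change of precursors is read from them. Striatal markers were below 0 in 9 of 9, with a median of -0.57 and none called. The part of these in the results was not tested.

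By pair, none of the 30 was called by edgeR or DESeq2, and limma-voom called 1 in each pair on the 5xFAD background and 0 in the others. Dp16 against wild-type sham (0.210% of all genes called) had 1 higher and 0 lower unadjusted, against 4.04% and 3.22%. Its ends were Nsdhl, a sterol dehydrogenase, at 0.23 (adjusted p = 0.647), Idi1 at 0.20 (adjusted p = 0.891; 0.11 without wild-type sham 3 and 0.35 without wild-type sham 2), Pmvk at -0.22 and Ebp, a sterol isomerase, at -0.16. Hmgcs1 alone was without overlap, against 4.59% of all genes. Treated Dp16 against wild-type (0.250% called) had 3 higher and 1 lower, against 3.91% and 4.58%, the lower one being Srebf1 at -0.34 (adjusted p = 0.282). 5xFAD-Dp16 against 5xFAD had 2 higher and 0 lower in sham (0.102% called), against 2.18% and 1.66%, and 3 higher and 0 lower with tofacitinib (0.238% called), against 3.82% and 4.18%.

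Treated 5xFAD-Dp16 mice were also compared with treated wild-type mice, which share libraries with the pairs above. None of the 30 was called, where 0.306% of all genes were, and 9 were higher and 0 lower unadjusted, against 2.99% and 3.42%. DESeq2 called 1 and limma-voom 2. Msmo1 differed by 0.44 (SE 0.10, adjusted p = 0.0543), Stard4 by 0.44 (SE 0.13, adjusted p = 0.181) and Hmgcs1 by 0.30 (SE 0.089, adjusted p = 0.191). Msmo1, Stard4, Sc5d and Idi1 were without overlap, against 2.4% of all genes.

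**Figure D4:**
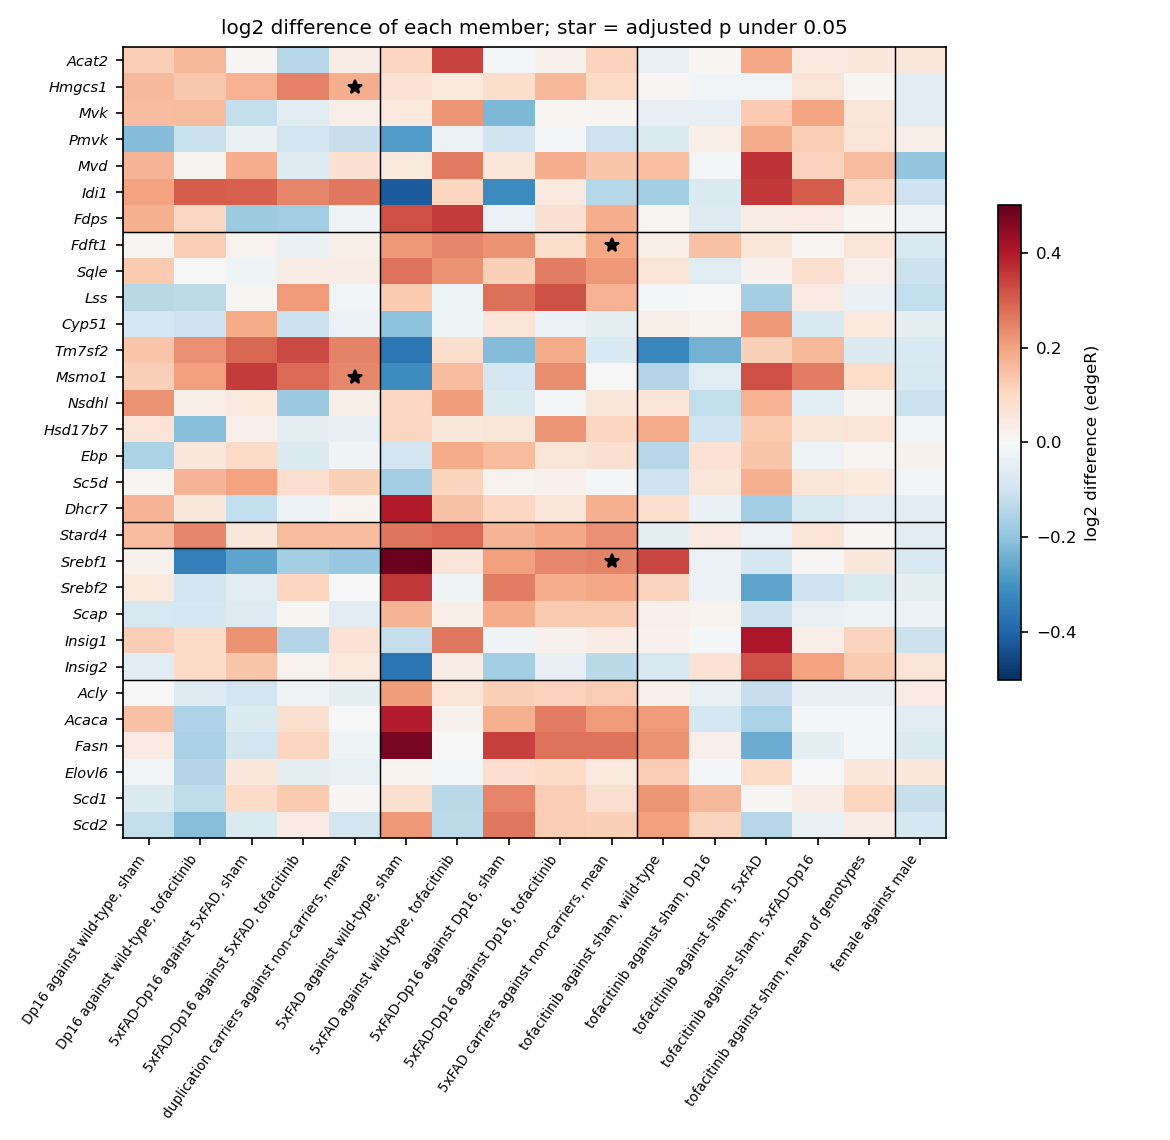
log2 difference (colour) of each gene (rows, by role) in 16 comparisons (columns: duplication, 5xFAD, tofacitinib, sex); a star marks an adjusted p under 0.05. The 4 stars are Hmgcs1 and Msmo1 under the duplication mean and Fdft1 and Srebf1 under the 5xFAD mean.

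Tofacitinib was the third question. Averaged over genotypes none of the 30 was called by edgeR, DESeq2 or limma-voom, and edgeR called none of all genes (0%). At unadjusted p under 0.05, 2 were higher and 0 lower, against 2.17% and 1.19% of all genes. Differences were above 0 for 22 of the 30, against 53.0% of all genes, with a median of 0.04 against 0.008. Mvd, which decarboxylates mevalonate diphosphate, differed by 0.15 (SE 0.072, adjusted p = 0.934) and Insig2 by 0.13 (SE 0.058, adjusted p = 0.934). Mvd ranged from 17.99 to 34.1 CPM (median 26.8) in the 19 treated mice and from 15.5 to 29.9 (median 23.0) in the 15 sham mice. Insig2 ranged from 33.7 to 50.1 CPM (median 41.6) and from 32.1 to 51.4 (median 39.6). Treated and sham ranges overlapped for both genes. Srebf2 and Tm7sf2 were lowest, both at -0.07. In the sex-adjusted fit Fdft1 and Scd1 were above 0 in all 4 genotypes, 2 of 30 against 5.06% of all genes. Scd1 in 5xFAD was at 0.00, with group means of 288.7 CPM treated and 292.5 sham.

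Within genotypes none was called either (0% of all genes in each). In 5xFAD, 8 were higher and 1 lower unadjusted, against 8.08% and 6.77% of all genes, and limma-voom called 9 and DESeq2 0. Of those 9, Srebf2, Fasn and Scd2 were lower and the rest higher. The 0% is the share in edgeR, and the share of all genes that limma-voom called is not given here. The largest was Insig1 at 0.40 (adjusted p = 0.320), and Msmo1 differed by 0.32 (adjusted p = 0.320). The rank correlation of differences with gene length was -0.604 over the 30 genes, and -0.128 with length trends removed. In wild-type 1 was higher and 1 lower (4.49% and 2.82% of all genes), in Dp16 none was higher or lower (1.05% and 0.998%), and in 5xFAD-Dp16 1 was higher and 0 lower (0.987% and 0.930%).

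Whether effects depended on each other was tested with interaction terms, and edgeR called none of the 30. For drug and 5xFAD limma-voom called 7, of which Srebf1, Srebf2, Fasn and Scd2 were lower. Otherwise it and DESeq2 called 0. The shares of all genes called below are those of edgeR, and the share that limma-voom called is not given here. For drug and 5xFAD (0% of all genes called) 4 were higher and 1 lower unadjusted, against 7.55% and 6.90%. Msmo1 differed by 0.39 (SE 0.11, adjusted p = 0.331). Its 5xFAD libraries lay at 65.7 to 77.6 CPM in sham and 81.3 to 95.2 with tofacitinib, without overlap, while wild-type libraries overlapped. Between sham and tofacitinib the share of all genes without overlap was not computed. For 5xFAD and duplication (0.00567% called) 1 was higher and 3 lower, against 2.00% and 2.35%. For drug and duplication (0% called) 0 were higher and 1 lower, against 1.02% and 1.30%. Between sexes none was called by any of the 3 tools (0.0624% of all genes). At unadjusted p, 0 were higher and 3 lower in females, against 2.46% and 3.07%. In females 6 of the 30 were above males, against 51.3% of all genes, and Mvd was lowest at -0.20 (adjusted p = 0.726).

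As a mean of log2(CPM + 0.5) per library, the 18 sterol enzymes stood at 5.19 ± 0.05 (SD, n = 5) in wild-type sham and 5.20 ± 0.07 (n = 4) in 5xFAD sham. They stood at 5.32 ± 0.06 (n = 5) in treated 5xFAD and 5.34 ± 0.08 (n = 4) in treated 5xFAD-Dp16, above treated wild-type at 5.17 ± 0.05 (n = 5). The 6 fatty acid enzymes followed another order, with 7.52 ± 0.19 (n = 5) in wild-type sham, 7.77 ± 0.11 (n = 4) in 5xFAD sham and 7.73 ± 0.07 (n = 3) in 5xFAD-Dp16 sham. With tofacitinib they stood at 7.69 ± 0.18 (n = 5) in wild-type, 7.66 ± 0.14 (n = 5) in 5xFAD and 7.72 ± 0.07 (n = 4) in 5xFAD-Dp16, so treated 5xFAD was not above treated wild-type. The 2 Dp16 groups stood at 7.52 ± 0.08 (n = 3) and 7.55 ± 0.07 (n = 5). All 6 fatty acid enzymes were longer than 3.706 kb, the median of the 30 genes, and these means were not corrected for length. Their mean was 7.24 in wild-type sham 2, whose correlation with length was -0.246, and 7.73 in wild-type sham 3, at 0.277. The sterol enzyme and regulator means were not corrected for length either. The part of length in the order of the groups was not tested. The 5 regulators stood lowest at 6.30 ± 0.06 (n = 5) in wild-type sham and highest at 6.46 ± 0.05 (n = 5) in treated 5xFAD. By library, the number of the 30 genes above their own median over all mice ran from 4 in Dp16 tofacitinib 2 to 26 in 5xFAD-Dp16 tofacitinib 4. These means carry no test.

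**Figure D5:**
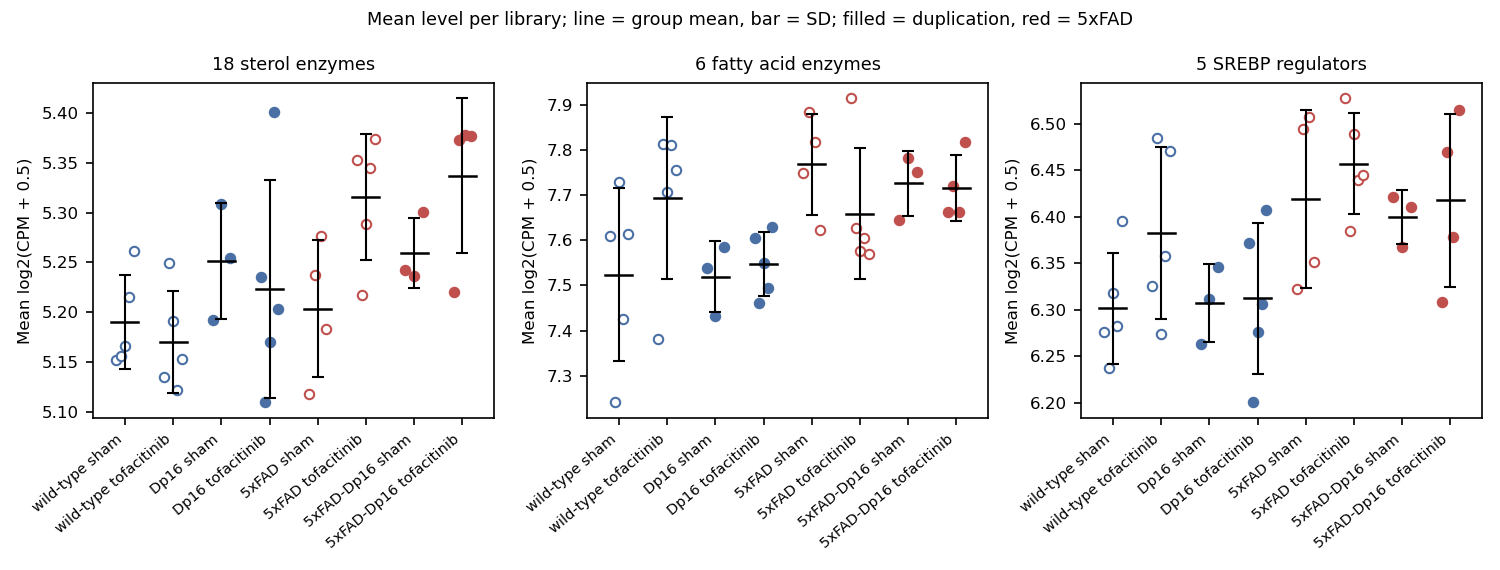
Mean log2(CPM + 0.5) per library (vertical) of sterol enzymes, fatty acid enzymes and regulators by group (horizontal); points are libraries, lines group means, bars SD, filled points carry the duplication and red points carry 5xFAD. Sterol enzymes average 5.34 in treated 5xFAD-Dp16 and 5.17 in treated wild-type. Fatty acid enzymes average 7.77 in 5xFAD sham and 7.52 in wild-type sham. Length trends of the libraries are not removed.

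Other genes of these pathways were taken from 3 lists. Of 15 further sterol synthesis and SREBP genes tested, none was called in either mean, and in 5xFAD carriers 13 were above 0, between -0.17 (Ggps1, which makes geranylgeranyl diphosphate) and 0.39. Of 20 genes of sterol uptake, efflux and turnover, 1 was called higher and 1 lower in duplication carriers. The lower was Npc1, which exports cholesterol from lysosomes, at -0.27 (SE 0.075, adjusted p = 0.0466), with 44.2 to 71.0 CPM (median 60.1) against 49.3 to 96.2 (median 70.1). The higher was Ch25h, the cholesterol 25-hydroxylase, with an adjusted p of 0.0397 at very low counts. It had 1 to 26 reads per library in carriers and 0 to 31 in the other mice, 6 of whose 19 libraries had 0. Of 22 genes of fatty acid elongation, desaturation and activation, 1 was called, higher in duplication carriers. This was Thrsp, a lipogenic protein induced by thyroid hormone, at 0.46 (SE 0.10, adjusted p = 0.00855), with 26.9 to 55.3 CPM (median 34.8) against 19.0 to 40.7 (median 25.7). None of these genes was called in 5xFAD carriers.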

How the data were processed

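PolyA RNA was prepared with a strand-specific kit and read as 150-base pairs, per the labels' protocols. The authors deposited read counts per gene and RPKM. The submitters' processing notes name bcl2fastq, FastQC 0.11.5, HISAT2 2.1.0, SAMtools 1.5, HTSeq 0.6.1 and GRCm38, with no order. The deposited RPKM equalled the count scaled by gene length and by the library's counted reads, and gene length was recovered from it. Counts ranged from 16029841 to 21388650 per library, and intervals are not given for single counts.

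Counts were filtered (filterByExpr), scaled by TMM and tested with edgeR 4.0.16 quasi-likelihood F-tests in R 4.3.3, two-sided, with 8 groups and sex in 1 fit of all 34 mice. P-values were adjusted by Benjamini-Hochberg over 17632 genes in each of 21 comparisons. CPM are on TMM-scaled totals. Alternatives used DESeq2 1.42.0, limma 3.58.1 (voom with sample weights), other filters and scalings, a length trend removed per library by loess, and libraries left out in turn. Scripts were tested on simulated data. No pair of libraries in a group agreed within sampling noise (chi-square per degree of freedom 4.67 to 135.2 over 58 pairs). Of the 6 treated 5xFAD mice and 4 sham 5xFAD-Dp16 mice in the series text, 5 and 3 had libraries analysed.

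The 30 genes and all lists were chosen with earlier results of these data known. Values were given for called genes, for the highest and lowest RPKM of each role, and for the 2 largest and 2 smallest differences in the sham comparisons with wild-type and in the means. From other lists up to 4 called genes were named. Positions were checked in GENCODE M21 (GRCm38), and 29 of the 30 gene versions were the same as in the files. The exception was Fdft1.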

Additional observations from a re-analysis of the deposited data

Results flagged for a closer look

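Within groups of 4 or 5, a library far from the rest was looked for in 19 described genes and 4 means, by the gap to its nearest neighbour over the range of the group. Of 138 such checks 13 stood out, where chance at the 5% level alone gives about 1 in 20. No cause was tested.

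5xFAD-Dp16 tofacitinib 1 was low for the sterol enzyme mean, 5.22 against 5.37 to 5.38 in the other libraries of its group, and for Fdft1, 105.1 CPM against 126.4 to 130.6. It was high for Ebp, 21.7 CPM against 15.5 to 16.3. Wild-type tofacitinib 1 was low for the fatty acid enzyme mean, 7.38 against 7.71 to 7.81, for Fasn, 171.7 CPM against 249.8 to 274.9, and for Scd2, 1251 CPM against 1777 to 1917. 5xFAD tofacitinib 1 was high for the fatty acid enzyme mean, 7.91 against 7.57 to 7.63. Dp16 tofacitinib 4 was high for Msmo1, 123.3 CPM against 80.3 to 92.5, and for Pmvk, 61.3 CPM against 42.7 to 47.8. 5xFAD sham 1 was high for Pmvk, 50.5 CPM against 41.5 to 42.8. 5xFAD tofacitinib 4 was high for Ebp, 22.9 CPM against 15.9 to 17.4. Wild-type tofacitinib 3 was low for Stard4, 19.8 CPM against 27.2 to 29.97. Wild-type sham 3 was low for Tm7sf2, 8.13 CPM against 12.1 to 13.1.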

How the results depend on the processing

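The number of the 30 genes called depended on the tool and on single libraries. How many of all genes each of these other fits called is not given here, so the counts cannot be set against all genes. For 5xFAD against wild-type, sham, edgeR called 0, DESeq2 8, limma-voom 10, edgeR without a count filter 5, without the sex term 1, on the compared groups alone 5 and with the length trend removed 1. Leaving out 1 library gave 0 to 11, with 11 without wild-type sham 3, 6 without wild-type tofacitinib 1 and 4 without 5xFAD tofacitinib 1. For the 5xFAD mean, edgeR called 2, DESeq2 6, limma-voom 8, no filter 7, DESeq2 size factors 1, and 1 without wild-type sham 2 and 5xFAD tofacitinib 2 together; leaving out 1 library gave 0 to 6, with 6 without 5xFAD tofacitinib 2. For the duplication mean, edgeR called 2, limma-voom 6 and edgeR without the same 2 libraries 3, Idi1 (0.31, adjusted p = 0.0270) besides Msmo1 and Hmgcs1, and leaving out 1 library gave 1 to 4, with 4 without wild-type tofacitinib 1 and 3 without wild-type sham 2.

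Other counts were 0 in the edgeR fit. limma-voom gave 2 for 5xFAD-Dp16 against wild-type, sham, 1 for 5xFAD-Dp16 against 5xFAD in sham and 1 with tofacitinib, 2 for 5xFAD against wild-type, tofacitinib, 9 for tofacitinib in 5xFAD and 7 for drug and 5xFAD; no filter gave 1 for each of the last 2. For 5xFAD-Dp16 against wild-type, tofacitinib, DESeq2, no filter, the 2 libraries left out and the length trend removed each gave 1, and limma-voom 2. Leaving out 1 library gave 0 to 1 there and for tofacitinib in 5xFAD. The cause was not tested.

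Over 34 fits that each left out 1 library, Msmo1 was called in 34, Hmgcs1 in 20 (adjusted p up to 0.0767), Fdft1 in 23 (up to 0.115) and Srebf1 in 11 (up to 0.132). Srebf1 was not called with DESeq2 size factors (adjusted p = 0.0501) or without the 2 libraries (0.0575), and Hmgcs1 not without a count filter (0.0762). Replicate numbers are not stated to pair mice. Of 98 same-numbered pairs 8 correlated over 0.1, and 2 of 34 libraries correlated best with their own number. These correlations cannot show that mice were not paired. With a replicate block 0 of the 30 were called in either mean, with adjusted p of 0.0512 for Msmo1, 0.109 for Hmgcs1, 0.0946 for Fdft1 and 0.127 for Srebf1.

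Differences of the per-library means from wild-type sham moved when medians over genes replaced means: 0.12 for all 30 in wild-type tofacitinib and -0.0216 in Dp16 sham; 0.17, 0.23 and 0.13 for sterol enzymes in 5xFAD sham, 5xFAD tofacitinib and 5xFAD-Dp16 sham; -0.0528 and 0.15 for regulators in Dp16 sham and 5xFAD-Dp16 sham. On deposited RPKM they were 0.0891 for all 30 and 0.0519 for regulators in Dp16 sham, and 0.21 for regulators in 5xFAD tofacitinib. Groups of 3 to 5 mice limit the single pairs.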
